A study of Mus musculus with 6 samples.

Results

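The kinesin superfamily was compared between the mouse gastric adenocarcinoma cell line MPC and its paclitaxel (PTX)-resistant derivative MPC-PTX, which the study calls MTC and MTC-R. Every gene named Kif or Kifc followed by a digit was taken, which gave 43 kinesin genes of the 21959 in the count table, and 34 of them had enough counts to be tested. Kinesins under other names, such as Cenpe and Stard9, were not among them. Both lines carry the genotype CDH1-/-;Trp53-/- and were grown in RPMI medium with serum, and MPC-PTX had in addition gone through repeated cycles of PTX. RNA sequencing counts of 3 libraries per line were deposited, all with the same batch label. MPC was cloned from a subcutaneous nude mouse tumour of Trp53-/- and Cdh1-/- organoids, in which tamoxifen had driven recombination through Mist1-CreER, and MPC-PTX also went through monoclonal selection, so each line stands for 1 clone. Nothing in the labels says that the 3 libraries of a line came from separate cultures, so the p-values measure only the spread between these libraries, which may be technical.

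Kinesins are ATP-driven motors that walk along microtubules, the polymers that PTX binds and stabilizes. Mitotic kinesins build and move the spindle, align chromosomes and complete cell division, whereas transport kinesins carry vesicles, organelles and other cargo, and others work in or at the base of the cilium. Some family members do not walk but take tubulin off microtubule ends. The tested genes were 14 of 15 mitotic, 14 of 17 transport, 4 of 6 cilium and 2 of 5 other kinesins, grouped by the known main role of each protein.

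Kif20a, Kif23 and Kifc1, mitotic motors of the central spindle and the spindle pole, were lower in MPC-PTX, and no mitotic kinesin was higher with all libraries, although 4 were when MPC replicate 3 was left out. Transport kinesins moved in both directions, with Kif1b and Kif3a higher and Kif13b, Kif3c and Kif1c lower. All 3 cilium kinesins that passed the test, Kif19a, Kif7 and Kif24, were higher, and Kif12 went from low counts in MPC to 0 in MPC-PTX. In all, 12 of the 34 tested kinesins (35.3%) passed at an adjusted p below 0.05 (quasi-likelihood test of edgeR, Benjamini-Hochberg adjusted over 11795 genes), beside 29.7% of all tested genes. This count includes Kif12, which entered the test through MPC alone. The 5 higher kinesins made 14.7% of those tested and the 7 lower ones 20.6%, beside 14.1% and 15.6% of all genes. Both shares are near those of genes at large, and the median log2 fold change (MPC-PTX over MPC) over the 34 was 0.08 against 0.04 over all tested genes. These are bulk samples, in which fewer cells with a transcript and less of it per cell cannot be told apart.

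**Figure D1:**
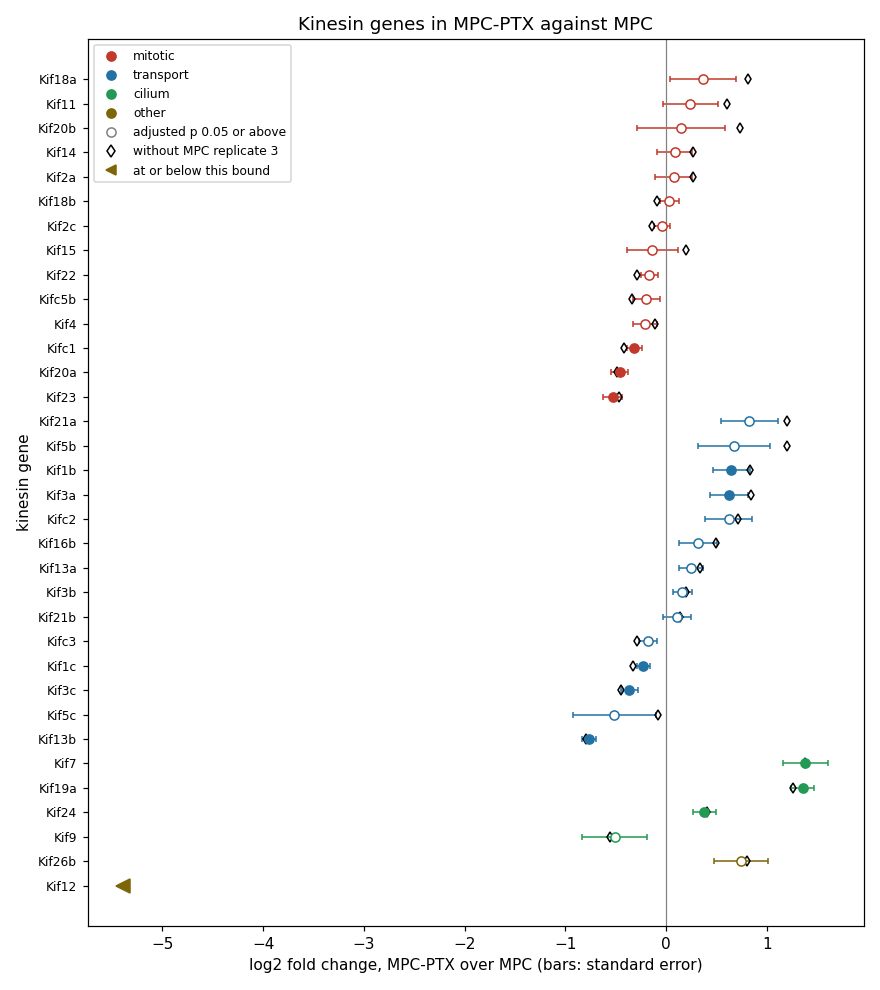
Log2 fold change of each tested kinesin gene, MPC-PTX over MPC, with its standard error on the x axis and genes grouped by role on the y axis; filled circles had an adjusted p below 0.05, diamonds give the value without MPC replicate 3, and the triangle gives the bound for Kif12. The 3 filled mitotic genes (Kif20a, Kif23, Kifc1) lie below 0, the filled transport genes lie on both sides, and the diamonds of Kif11, Kif18a, Kif20b, Kif5b and Kif21a lie far to the right of their circles.

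The 6 libraries held 16574580 to 23148182 counts, with 13897 to 14295 genes detected. Among the MPC libraries the biological coefficient of variation was 17.9%, beside 3.01% among those of MPC-PTX. Chi-square per gene measures how far the counts of 2 libraries differ. MPC replicate 3 stood furthest apart, at 60.7 from MPC replicate 1 and 32.2 from MPC replicate 2. Those 2 libraries also differed from each other, at 14.9, beside 1.84 to 3.36 between the MPC-PTX libraries. Cdh1 was counted at 131 to 136 CPM (the count relative to the TMM-scaled library size) and Trp53 at 3.25 to 6.59 CPM in the 6 libraries. Counts per gene hold no information on single exons, so they check neither deletion. All 11 epithelial markers were detected, with a summed level of 10817 to 12448 CPM in MPC and 6884 to 7091 CPM in MPC-PTX. Of 15 gastric markers in the table, Tff1, Tff2, Pgc, Gkn2 and Gast were at 0 in every library, and the list summed to 325 to 464 CPM in MPC against 2.18 to 2.61 CPM in MPC-PTX. The sums for fibroblast (8.71 to 10.9 CPM), leukocyte (9.92 to 12.8 CPM) and endothelial markers (5.26 to 7.26 CPM) were low in all 6 libraries.

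The CHR element TTTGAA and the CCAAT box, short sequences known from promoters of cell cycle genes, were looked for on both strands (TTCAAA and ATTGG on the other) in RefSeq windows from 250 bases before to 50 after each gene start (GRCm38.p6). Windows were held for 33 kinesin genes, and Kif20a, Kif13b, Kif5b and Kif19a were among those without a window. The CHR letters were in 11 of 15 windows of 14 mitotic kinesins (73.3%), in 1 of 13 windows of 11 transport kinesins (7.69%) and in 17.9% of all 32851 windows. The CCAAT letters were in 9 of 15 mitotic windows (60.0%), 4 of 13 transport windows (30.8%) and 37.4% of all windows. Stretches of 5 genes, from 80 bases before to 30 from the start on are shown because they hold both elements next to the start in Kif23, Kifc1 and Kif11, the CCAAT box alone in Kif3a and neither in Kif12, the gene with the largest drop; capitals mark the matches, which are descriptions of letters and not of bound sites.
Kif23: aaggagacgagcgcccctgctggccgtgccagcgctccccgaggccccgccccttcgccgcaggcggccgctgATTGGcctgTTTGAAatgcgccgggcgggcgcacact
Kifc1: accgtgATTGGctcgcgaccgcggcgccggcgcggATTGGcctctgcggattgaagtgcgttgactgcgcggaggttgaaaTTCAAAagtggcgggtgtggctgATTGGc
Kif11: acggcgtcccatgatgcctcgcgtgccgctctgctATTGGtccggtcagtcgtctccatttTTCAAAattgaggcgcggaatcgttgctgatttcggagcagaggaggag
Kif3a: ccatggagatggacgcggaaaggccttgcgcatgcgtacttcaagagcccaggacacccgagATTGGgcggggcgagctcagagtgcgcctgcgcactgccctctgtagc
Kif12: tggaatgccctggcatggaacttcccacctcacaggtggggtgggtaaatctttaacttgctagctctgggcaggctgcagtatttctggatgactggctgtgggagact
The stretches lie at chr9:61946770-61946879 (minus strand) for Kif23, chr17:33890604-33890713 (minus strand) for Kifc1, chr19:37376302-37376411 (plus strand) for Kif11, chr11:53567289-53567398 (plus strand) for Kif3a and chr4:63172102-63172211 (minus strand) for Kif12. Kif23 and Kifc1, which were lower in MPC-PTX, and Kif11, which was not, thus share both letter strings near the start.

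The mitotic kinesins that fell were Kif20a, Kif23 and Kifc1, 3 of 14 tested (21.4%), beside 15.6% of all genes lower. Kif20a, which brings Aurora B and its partners to the central spindle (ENSMUSG00000003779, chr18:34624613-34633277, GRCm38), had 169, 205 and 197 CPM in MPC replicates 1, 2 and 3 and 144, 136 and 135 CPM in the MPC-PTX libraries. Every MPC-PTX library lay below every MPC library, and the log2 fold change was -0.46 (SE 0.08, adjusted p = 0.00681). Kif20a shares 29.3% of its exonic bases with Cdc23 on the opposite strand, which was higher in MPC-PTX (log2 fold change 0.27, adjusted p = 0.0179), and since the use of strand in counting is not stated, reads of the 2 genes cannot be told apart there.

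Kif23 is the motor subunit of centralspindlin, the complex that bundles microtubules at the midzone (ENSMUSG00000032254, chr9:61915905-61946774). It had 150, 154 and 190 CPM in MPC and 115, 113 and 113 CPM in MPC-PTX, with no overlap. The log2 fold change was -0.53 (SE 0.10, adjusted p = 0.00654), and it was -0.47 without MPC replicate 3. Racgap1, the other subunit of centralspindlin, had a log2 fold change of -0.01 (SE 0.08, adjusted p = 0.933). The log2 ratio of Kif23 to Racgap1 was -0.59 ± 0.25 (SD, n = 3) in MPC and -1.11 ± 0.07 (SD, n = 3) in MPC-PTX, without overlap (exact two-sided permutation p = 0.1, the smallest that 3 against 3 allows; 1 of 6 ratios compared).

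Kifc1, a minus-end directed motor that focuses spindle poles and clusters extra centrosomes (ENSMUSG00000079553, chr17:33875659-33890661), had 99.4, 94.9 and 87.7 CPM in MPC and 77.0, 73.5 and 76.2 CPM in MPC-PTX. The groups did not overlap, and the log2 fold change was -0.32 (SE 0.07, adjusted p = 0.0153), or -0.41 without MPC replicate 3. Its close copy Kifc5b had a log2 fold change of -0.20 (adjusted p = 0.307). Of the 50-base words of the longest Kifc1 transcript, 45.8% are also in that of Kifc5b, so how reads were divided between them is uncertain. The Kifc1 call was lost in 4 of the 6 fits that left out 1 library, with an adjusted p of up to 0.0863.

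The other 11 tested mitotic kinesins had an adjusted p of 0.05 or above, with log2 fold changes from -0.21 (Kif4) to 0.36 (Kif18a), and the median over all 14 was -0.09. No mitotic kinesin was higher at an unadjusted p below 0.05 either, in the edgeR fit, and DESeq2 called none higher. Kif11, the motor that pushes spindle poles apart (ENSMUSG00000012443, chr19:37376403-37421859), had 56.8, 63.8 and 120 CPM in MPC and 88.1, 103 and 93.5 CPM in MPC-PTX. Replicate 3 of MPC was above every MPC-PTX library and the other MPC libraries were below them all, and the log2 fold change was 0.24 (SE 0.27, adjusted p = 0.548). Kif18a, which shortens kinetochore microtubules and dampens chromosome movements (ENSMUSG00000027115, chr2:109280738-109341747), followed the same order with 11.5, 10.4 and 24.6 CPM in MPC and 17.3, 21.1 and 21.6 CPM in MPC-PTX. Its log2 fold change was 0.36 (SE 0.32, adjusted p = 0.440).

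Without MPC replicate 3 the log2 fold changes became 0.60 for Kif11 (adjusted p = 0.000285) and 0.81 for Kif18a (adjusted p = 0.000485), and both were higher in MPC-PTX. In that fit 4 mitotic kinesins were higher (Kif11, Kif18a, Kif14, Kif2a) and 5 lower (Kif20a, Kif23, Kifc1, Kif22, Kifc5b), with a median of -0.10, and 52.5% of all genes were called. Kif20a, Kif23 and Kifc1 were therefore lower with and without that library, whereas the place of Kif11 and Kif18a depended on it. Kif2c, which takes tubulin off microtubule ends at the centromere (ENSMUSG00000028678, chr4:117159639-117182639), had 78.4, 84.9 and 74.5 CPM in MPC and 80.6, 77.2 and 72.7 CPM in MPC-PTX. These values overlapped, and the log2 fold change was -0.04 (SE 0.08, adjusted p = 0.702), or -0.14 without MPC replicate 3 (adjusted p = 0.118).

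**Figure D2:**
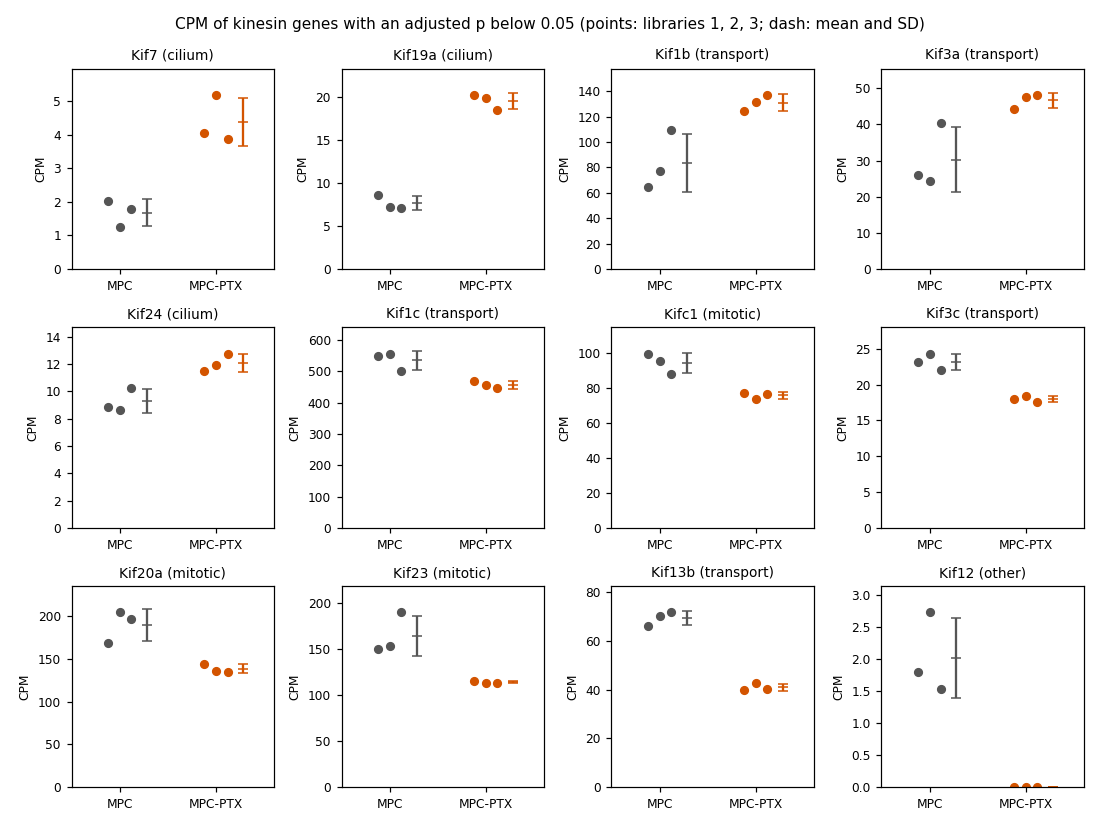
CPM (y axis, linear from 0) of the 12 kinesin genes with an adjusted p below 0.05 in MPC and MPC-PTX (x axis); points are libraries 1, 2 and 3 from left to right, and the dash and bar give the mean and SD of 3 libraries. In all 12 panels the MPC and MPC-PTX points do not overlap, and MPC replicate 3 is the highest MPC point of Kif1b (109 CPM), Kif3a (40.5 CPM), Kif24 (10.3 CPM), Kif23 (190 CPM) and Kif13b (71.8 CPM).

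Transport kinesins gave 2 higher (14.3%) and 3 lower genes (21.4%) of 14 tested, near the 14.1% and 15.6% of all genes, with a median log2 fold change of 0.20. Kif13b, which carries phosphoinositide-rich vesicles and binds the polarity protein Dlg1 (ENSMUSG00000060012, chr14:64647265-64809617), had 66.3, 70.3 and 71.8 CPM in MPC and 39.8, 42.6 and 40.3 CPM in MPC-PTX. The lines were far apart beside the spread within them, with a log2 fold change of -0.76 (SE 0.07, adjusted p = 0.000368), and the call held in all 6 fits without 1 library. Its relative Kif13a, a motor of recycling endosomes, had a log2 fold change of 0.25 (adjusted p = 0.169). The log2 ratio of Kif13a to Kif13b was -0.66 ± 0.18 (SD, n = 3) in MPC and 0.37 ± 0.05 (SD, n = 3) in MPC-PTX (exact two-sided permutation p = 0.1, the smallest possible).

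Heterotrimeric kinesin, the anterograde motor of cilia and of several other cargos, pairs Kif3a with Kif3b or Kif3c. Kif3a (ENSMUSG00000018395, chr11:53567379-53601967) had 25.9, 24.3 and 40.5 CPM in MPC and 44.2, 47.5 and 48.2 CPM in MPC-PTX, a log2 fold change of 0.62 (SE 0.19, adjusted p = 0.0494). Kif3c (ENSMUSG00000020668, chr12:3365132-3406494) went the other way, with 23.2, 24.3 and 22.1 CPM in MPC, 17.98, 18.4 and 17.6 CPM in MPC-PTX and a log2 fold change of -0.37 (SE 0.08, adjusted p = 0.0153). Kif3b and the adaptor Kifap3 had log2 fold changes of 0.16 (adjusted p = 0.257) and 0.15 (adjusted p = 0.345), and both were called higher without MPC replicate 3 (0.20, adjusted p = 0.0482, and 0.23, adjusted p = 0.0254). The log2 ratio of Kif3a to Kif3c was 0.34 ± 0.47 (SD, n = 3) in MPC and 1.37 ± 0.08 (SD, n = 3) in MPC-PTX, without overlap (exact permutation p = 0.1). The antisense gene 1110002L01Rik overlaps 35.3% of the exonic bases of Kif3c and has no row in the count table.

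Kif1b and Kif1c, related motors of mitochondria and vesicles, also moved apart. Kif1b (ENSMUSG00000063077, chr4:149176319-149307693) had 64.7, 77.2 and 109 CPM in MPC and 124, 132 and 137 CPM in MPC-PTX, with a log2 fold change of 0.65 (SE 0.18, adjusted p = 0.0377). Kif1c (ENSMUSG00000020821, chr11:70700548-70731964), the most abundant kinesin per length in both lines, had 549, 557 and 500 CPM in MPC and 469, 456 and 446 CPM in MPC-PTX, and a log2 fold change of -0.23 (SE 0.06, adjusted p = 0.0338). Kif1c made up 20.3% to 26.0% of all kinesin CPM in MPC and 20.3% to 21.7% in MPC-PTX, which overlap. The log2 ratio of Kif1b to Kif1c was -2.71 ± 0.46 (SD, n = 3) in MPC and -1.80 ± 0.11 (SD, n = 3) in MPC-PTX (exact permutation p = 0.1).

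Among these transport genes only Kif13b kept its call in every fit that left out 1 library. Kif1b and Kif3a had an adjusted p below 0.05 only when MPC replicate 3 was the library left out, with log2 fold changes of 0.83 and 0.84, and their largest adjusted p was 0.121 and 0.144. Kif1c and Kif3c lost the call in 4 of the 6 fits, with largest adjusted p of 0.145 and 0.0786.

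Kif5b, the ubiquitous heavy chain of conventional kinesin (ENSMUSG00000006740, chr18:6201002-6242174), had 64.0, 71.4 and 167 CPM in MPC and 143, 167 and 173 CPM in MPC-PTX. Replicate 3 of MPC lay among the MPC-PTX libraries, and the log2 fold change was 0.67 (SE 0.36, adjusted p = 0.204). It was 1.20 (adjusted p = 1.41e-05) without that library and 0.55 (adjusted p = 0.0317) after each library was corrected for GC content and transcript length. The kinesin light chains Klc1 to Klc4, which link this motor to cargo, had log2 fold changes from -0.15 to 0.18 and adjusted p of 0.128 or above. Kif21a, which slows microtubule growth at the cell cortex, was also highest in replicate 3 among the MPC libraries. It had 17.5, 16.9 and 34.9 CPM in MPC and 36.9, 41.1 and 45.03 CPM in MPC-PTX, without overlap, with a log2 fold change of 0.83 (SE 0.28, adjusted p = 0.0699) that was 1.20 without MPC replicate 3 (adjusted p = 1.34e-05). It is named here after its values were seen. The neuronal heavy chains were scarce, with Kif5c at 0.50 to 1.25 CPM (log2 fold change -0.51, adjusted p = 0.391, or -0.08 without MPC replicate 3, adjusted p = 0.882) and Kif5a and Kif1a below the filter.

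Without MPC replicate 3, 7 transport kinesins were higher (Kif5b, Kif21a, Kif3a, Kif1b, Kif16b, Kif13a, Kif3b) and 4 lower (Kif13b, Kif1c, Kif3c, Kifc3), with a median of 0.26. Over all kinesins 25 of 34 were called then, 15 higher and 10 lower, beside 52.5% of all genes. With the correction for GC content and length 15 kinesins were called, 7 higher and 8 lower, beside 41.4% of all genes. That fit added Kif21a and Kif5b to the higher and Kif4 to the lower genes.

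**Figure D3:**
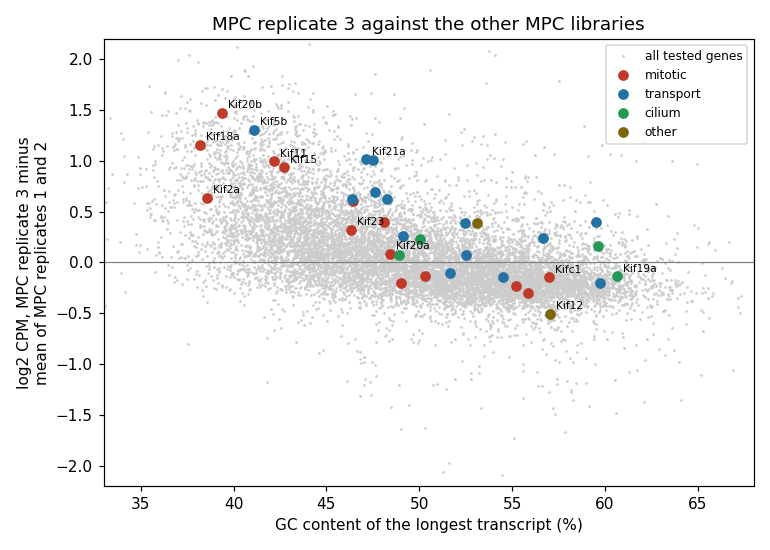
Difference in log2 CPM between MPC replicate 3 and the mean of MPC replicates 1 and 2 (y axis) against the GC content of the longest transcript in percent (x axis), for tested kinesins by role and for all tested genes in grey, 9 of which lie outside the axes. The 6 kinesins with GC content below 45% lie between 0.64 and 1.47, and most of those at 55% or more lie below 0.

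The deviation of MPC replicate 3 moved with base composition. The 6 tested kinesins with a GC content below 45% (Kif11, Kif15, Kif18a, Kif20b, Kif2a and Kif5b) were all higher in MPC replicate 3 than in the mean of the other MPC libraries, by 0.64 to 1.47 on the log2 scale, with Kif20b at 1.47 and Kif5b at 1.30. The 9 with 55% or more ranged from -0.51 (Kif12) to 0.39 (Kifc2), and 3 of them were higher. Over the 34 kinesins Spearman's rho of this deviation with GC content was -0.79, over the 14 mitotic ones -0.92 and over the 14 transport ones -0.81, while it was -0.58 over 11776 genes. With transcript length, rho was 0.44 over the 34 kinesins, 0.81 over the mitotic and -0.11 over the transport ones, and 0.47 over all genes. These genes share the same 3 libraries and are not independent replicates. What part base composition, transcript length, library preparation or the cells had in the deviation of MPC replicate 3 was not tested.

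Among the cilium kinesins 3 of 4 tested were higher, beside 14.1% of all genes, and the median log2 fold change of the 4 was 0.87. Kif19a, which takes tubulin off microtubule ends and limits the length of motile cilia (ENSMUSG00000010021, chr11:114765388-114790739), had 8.61, 7.22 and 7.16 CPM in MPC and 20.3, 19.9 and 18.5 CPM in MPC-PTX. That is a log2 fold change of 1.35 (SE 0.11, adjusted p = 0.000205), with every MPC-PTX library above every MPC library. Kif7, which organizes the ciliary tip in Hedgehog signalling (ENSMUSG00000050382, chr7:79698098-79715720), was scarcer, with 38, 24 and 37 counts in MPC (2.02, 1.24 and 1.78 CPM) and 95, 115 and 65 counts in MPC-PTX (4.06, 5.18 and 3.86 CPM). Its log2 fold change was 1.38 (SE 0.23, adjusted p = 0.00419). The antisense gene 9330171B17Rik, with no row in the count table, overlaps 19.1% of the exonic bases of Kif7.

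Kif24, which trims centriolar microtubules and holds back cilium formation (ENSMUSG00000028438, chr4:41390745-41464887), had 8.87, 8.66 and 10.3 CPM in MPC and 11.5, 11.9 and 12.8 CPM in MPC-PTX. The log2 fold change was 0.38 (SE 0.11, adjusted p = 0.0409), and the call was lost in 5 of the 6 fits without 1 library, with an adjusted p of up to 0.148. Kif9, a motor of motile cilia and sperm tails, had a log2 fold change of -0.51 (adjusted p = 0.277). The markers of multiciliated cells did not rise with Kif19a. Their summed level was 13.8 to 15.1 CPM in MPC and 6.63 to 8.50 CPM in MPC-PTX. Of the 14 markers only 3 had enough counts to be tested. Foxj1, the master regulator of motile cilia, fell (log2 fold change -1.61, adjusted p = 0.000188). The other tested markers, at -0.18 and 0.28, were not called. Dnai1, Gmnc, Rsph4a and Tekt1 were at 0 in every library.

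Kif12, a kinesin known from kidney and other epithelial tubes (ENSMUSG00000028357, chr4:63165630-63172131), had 34, 53 and 32 counts in MPC and 0 in each MPC-PTX library. It passed the filter on low counts only through MPC. Against a floor of 3 counts over the MPC-PTX group it was at least 41.9-fold lower in MPC-PTX. Its place among the called genes follows from that filter and is given as a description. The 18 other tested genes within 1 Mb of Kif12 had a median log2 fold change of 0.12. Kif26b, a family member without motor activity, had 1.28, 2.68 and 2.45 CPM in MPC and 3.33, 3.92 and 3.51 CPM in MPC-PTX, with a log2 fold change of 0.74 (adjusted p = 0.0765). It was called without MPC replicate 3 (0.80, adjusted p = 0.0416).

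By the rule of the study's methods (absolute log2 fold change above 1 and unadjusted p below 0.05), Kif19a and Kif7 were higher and Kif12 lower, 3 of 34 kinesins beside 8.11% of all tested genes. None was a mitotic or transport kinesin. The 6 MPC and MPC-PTX libraries did not overlap in 17 of the 34 kinesins (50.0%), namely in 4 mitotic, 8 transport, 3 cilium and 2 other ones, beside 46.9% of all tested genes. Of the called genes, Kif20a, Kif23, Kif13b, Kif19a and Kif7 were called in each of the 6 fits that left out 1 library. Kif12 was too, but it entered these fits and the counts above through MPC alone.

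The remaining 9 kinesins had too few counts to be tested, at most 10 in any library. They were the mitotic Kif2b, the transport Kif17, Kif1a and Kif5a, the cilium Kif27 and Kif6 and the other Kif26a, Kif28 and Kif19b. Kif6, Kif2b and Kif28 were at 0 in all 6 libraries.

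**Figure D4:**
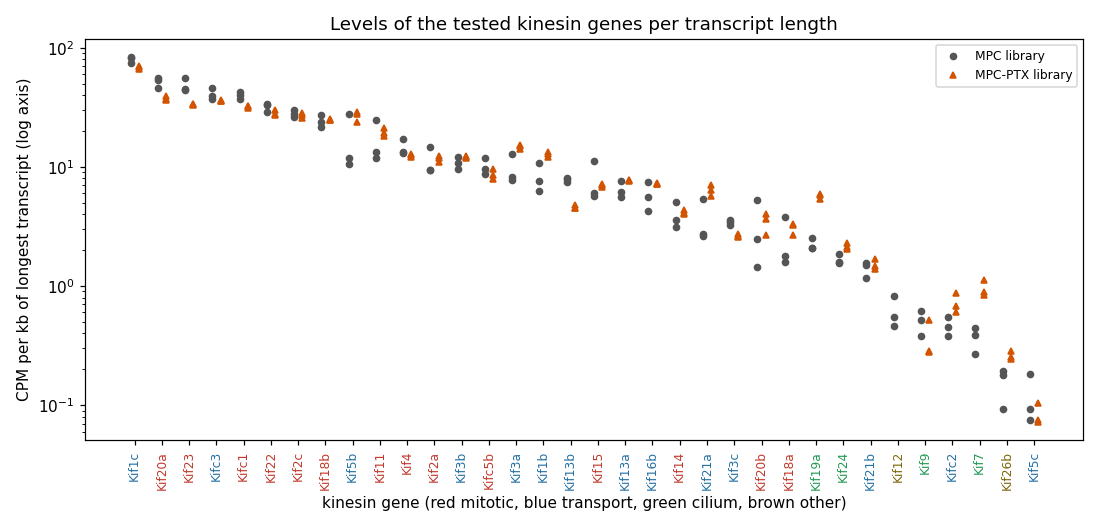
CPM per kilobase of the longest annotated transcript (y axis, log scale) of the 34 tested kinesins in order of their mean in MPC (x axis), with 1 grey circle per MPC library and 1 orange triangle per MPC-PTX library; Kif12 has no triangle because it was at 0. Kif1c leads in both lines, and the MPC circles spread widest for Kif5b, Kif11, Kif20b and Kif18a among the genes above 1 CPM per kilobase.

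Levels of different kinesins can be set side by side only per length. Per kilobase of the longest transcript, Kif1c was highest in MPC (80.1 CPM per kb), followed by Kif20a (51.8), Kif23 (48.5), Kifc3 (40.6) and Kifc1 (39.9 CPM per kb). In MPC-PTX, Kif1c stood at 68.3, Kif20a at 37.6, Kifc3 at 35.9, Kif23 at 33.5 and Kifc1 at 32.0 CPM per kb. Kif23 thus went from the third to the fourth place and Kifc3, a minus-end motor of the Golgi and cell junctions, took the third, and the libraries of Kif23 and Kifc3 overlapped in MPC but not in MPC-PTX. Kif3a rose from place 15 to 11 and Kif13b dropped from 17 to 22 of 43.

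The summed level of all kinesins was 2110, 2178 and 2468 CPM in MPC and 2161, 2199 and 2190 CPM in MPC-PTX, which overlap. Mitotic kinesins made up 46.8%, 47.0% and 48.1% of that sum in MPC and 43.6%, 43.0% and 42.7% in MPC-PTX. Transport kinesins made up 50.9% to 52.1% in MPC and 54.5% to 55.5% in MPC-PTX, and the cilium group 0.855% to 0.989% and 1.68% to 1.73%. The 3 shares did not overlap between the lines, and as parts of 1 sum they are not independent of each other. They are shares of CPM that was not divided by length. The median length was 6561.5 bases for tested transport and 4246.5 for tested mitotic kinesins. The shares therefore compare the lines and not the roles.

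Other genes of dividing cells were counted for comparison with the mitotic kinesins. Of 25 proliferation genes 6 fell and the other 19 did not pass the test (median log2 fold change -0.08). The share lower was thus 24.0%, beside 15.6% of all tested genes, and the share higher was 0%, beside 14.1%. In either direction 29.7% of all tested genes were called. Cdk1, the kinase that drives entry into mitosis, fell by 0.57 on the log2 scale (adjusted p = 0.000906), Ccnb2 by 0.50 and Ccnb1 by 0.37, its cyclins, and Ube2c, which marks them for breakdown, by 0.33. Without MPC replicate 3, 12 of these genes were lower and 3 higher, in a fit that called 52.5% of all genes. Whether fewer cells in mitosis had a part in the lower Kif20a, Kif23 and Kifc1 was not tested.

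Of 22 tested genes on a list of partners and adaptors of kinesins, 3 rose and 2 fell, with a median of 0.07. The 22.7% called lay below the 29.7% of all tested genes. That list also held the motors Cenpe (log2 fold change -0.14, adjusted p = 0.834) and Stard9 (0.57, adjusted p = 0.142), which were not called. The cargo adaptors Mapk8ip3 (log2 fold change 0.49, adjusted p = 0.00935), Trak2 (0.33, adjusted p = 0.0329) and Arl8b (0.22, adjusted p = 0.0416), which link kinesins to vesicles, mitochondria and lysosomes, were higher. Mapk8ip3 kept its call in every fit that left out 1 library (adjusted p of up to 0.0499). Trak2 and Arl8b lost theirs in such fits, with largest adjusted p of 0.123 and 0.155. They also lost it under the correction for GC content and length (adjusted p = 0.0718 and 0.323). Tpx2, which targets Kif15 and Aurora A to the spindle, was lower (-0.28, adjusted p = 0.0499). So was Birc5, a member of the complex that Kif20a carries (-0.23, adjusted p = 0.0211). The other members of that complex were not called: Aurkb (-0.02, adjusted p = 0.812), Cdca8 (-0.06, adjusted p = 0.512) and Incenp (-0.19, adjusted p = 0.0758). The calls of Tpx2 and Birc5 were lost in fits that left out 1 library, with largest adjusted p of 0.169 and 0.116.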

How the data were processed

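Per the labels and the methods of the study, mRNA was selected with poly-T beads and cDNA was made with random primers; the authors deposited raw counts per gene, made after filtering with fastp 0.22.0 and mapping with HISAT2 2.1.0. The counter, annotation, genome release, strandedness of the libraries, use of strand and treatment of multiply mapped reads are not given in the sources used here. The kinesins, roles, lists and tests were chosen with earlier results of these data known.

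Counts were tested with edgeR 4.0.16 in R 4.3.3 (TMM, filterByExpr with a minimum count of 10, robust quasi-likelihood fit by line), with Benjamini-Hochberg adjustment over 11795 genes. The fit was also run on simulated data. These gave each gene the same dispersion in both lines, so that run cannot speak to the wider spread in MPC. Full values were given for kinesins with an adjusted p below 0.05 or past the study's rule and for Kif11, Kif2c, Kif18a and Kif5b whatever their values; from other lists, up to 4 called genes with the largest change were named, and in addition Arl8b, Racgap1, Kifap3, Klc1 to Klc4, Cdc23, Foxj1, Tubb3, Kif21a, Kif26b and others with a stated reason. Alternatives were DESeq2 1.42.0, other scalings and filters, a replicate block, correction for GC content and length (loess, span 0.3) and leaving out each library. Positions and lengths came from GENCODE M21 (GRCm38), promoter windows from RefSeq (GRCm38.p6).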

Additional observations from a re-analysis of the deposited data

How the results depend on the processing

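With 3 libraries per line and most of the spread in MPC replicate 3, small changes of single kinesins could not be separated from the error; leaving out a library also leaves fewer residual degrees of freedom. Leaving out each library in turn gave 2 to 15 higher kinesins (5 with all) and 4 to 10 lower ones (7 with all). For mitotic kinesins it gave 0 to 4 higher and 2 to 5 lower ones, and for transport kinesins 0 to 7 higher and 1 to 4 lower ones. By the rule of the study's methods 2 kinesins were higher and 1 lower, with 0 mitotic kinesins lower and 0 transport kinesins higher or lower. The correction for GC content and length and the replicate block each gave 4 higher transport kinesins in place of 2. The deviations of same-numbered libraries correlated weakly, at 0.15, -0.02 and 0.17. Spearman's rho of the deviations with GC content in MPC and MPC-PTX was 0.47 and 0.27 for replicate 1. It was 0.35 and -0.01 for replicate 2, and -0.58 and -0.27 for replicate 3. Whether the numbers pair the libraries cannot be told from these values. Both medians by role moved by less than the spread between libraries under every alternative run.

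Kinesins without a call changed sign as follows, and the cause was not tested. Under the GC and length correction, Kif14 was at -0.12, Kif20b at -0.0042, Kif21b at -0.0475 and Kif2a at -0.15. Kif18b was at -0.0039 with DESeq2, -0.0041 with its size factors and -0.0022 with at least 10 counts in every library. Without 1 library, Kif14 ranged from -0.061 to 0.26, Kif15 from -0.31 to 0.20, Kif18b from -0.0933 to 0.13, Kif20b from -0.19 to 0.73, Kif21b from -0.0158 to 0.16, Kif2a from -0.0372 to 0.27 and Kif2c from -0.14 to 0.0071. Kif12 could not be tested with at least 10 counts required in every library. Kif24 lost its call with the DESeq2 size factors, with DESeq2, without a filter, with the stricter filter and with the replicate block, and Kif1c with library size alone. Calls were gained by Kif21a with DESeq2, the replicate block (adjusted p = 0.0106) and the GC and length correction, by Kif5b with the block (adjusted p = 0.0325) and that correction, by Kif26b with the block (adjusted p = 0.0488) and by Kif4 with that correction.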

Other observations

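Motors that walk towards the other end of the microtubule were measured beside the kinesins. Of 27 tested genes of cytoplasmic dynein, dynactin and their regulators, 6 fell and 1 rose, with a median log2 fold change of 0.01. The 25.9% called were beside 29.7% of all tested genes. By direction, 22.2% were lower, beside 15.6% of all tested genes, and 3.70% higher, beside 14.1%. Log2 fold changes over the 27 ran from -0.39 to 0.81, and the gene at 0.81 was not called. Among the called genes the 4 largest changes were falls. They were in Dctn2, a dynactin subunit (-0.39, adjusted p = 0.0149), and Dynll1, a dynein light chain (-0.38, adjusted p = 0.00604). Next came Nde1, which regulates dynein at the kinetochore and in nuclear movement (-0.35, adjusted p = 0.0129), and Dynlrb1, another light chain (-0.31, adjusted p = 0.0197). The light chain gene Dynlt1b was the 1 that rose (0.29, adjusted p = 0.0379), and it is named after its value was seen. Dync1i1 and Dynlrb2 were at 0 in every library.

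Kif3a and its partners carry the particles of intraflagellar transport in cilia. Of 25 tested genes of these particles and their motors, 5 fell and 1 rose (median 0.02), and the 24.0% called were beside 29.7% of all tested genes. Log2 fold changes ran from -0.53 to 0.58, and the gene at 0.58 was not called. Among the called genes Dync2li1, a subunit of the returning dynein motor, was lowest (-0.53, adjusted p = 0.0109). It was followed by Ift122 (-0.43, adjusted p = 0.0147), Ift43 (-0.42, adjusted p = 0.00895) and Ift46 (-0.42, adjusted p = 0.00896). Ift20, which also sits at the Golgi, was the 1 that rose (0.39, adjusted p = 0.0154), named after its value was seen. The neuron markers summed to 23.9 to 33.3 CPM in MPC and 35.5 to 37.0 CPM in MPC-PTX. Of the 13 markers only 2 had enough counts to be tested. Tubb3 was higher (log2 fold change 2.94, adjusted p = 0.00142), and the other, at -0.05, was not called. Nefl, Snap25 and Elavl4 were at 0. The part of the neuron markers in the transport kinesins was not tested.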
